A study of Caenorhabditis elegans with 4 samples.

Results

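Chromosome V held 1658 of the 8006 intervals (20.7%) in the list of enriched intervals deposited for LIN-39 in fed L1 larvae of Caenorhabditis elegans, and these 1658 are described here. They were chosen by position alone, as every interval of that list on V. The list belongs to the series as a whole and is called the combined list. It was set beside the lists of the 2 ChIP libraries, which held 720 (replicate 1) and 356 (replicate 2) intervals on V, or 20.3% and 20.4% of each list. An interval counted as found in another list when the intervals overlapped by 1 bp or more. All positions are 1-based on WormBase WS220, with V in its forward orientation. Genes of WS220 were not used here, and each interval is therefore given by its position with no gene assigned.

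The 4 libraries of the study, 2 ChIP and 2 input, came from 1 strain, OP18, which carries the unc-119(ed3) mutation on chromosome III. It also carries the array wgIs18, made of unc-119(+) and of lin-39 fused to the tags TY1, EGFP and 3xFLAG. The animals were hermaphrodites at the fed L1 stage, grown at 20 degrees C and not otherwise treated. ChIP and input libraries therefore share the unc-119 mutation, the rescuing unc-119 copy and the tagged lin-39 transgene, which was introduced by bombardment, and the chromatin of whole larvae was pulled down through GFP. The labels describe no strain without the tag, and the inputs entered no comparison here. Binding in the few cells that express lin-39 was read from an extract of all cells of the larva. Whether the replicates came from separate cultures is not stated, so differences between them may be technical.

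LIN-39 is a Hox protein, a homeodomain transcription factor that gives cells of the worm's mid-body their position. It is known for its part in the migration of Q neuroblast descendants, in the neurons of the ventral cord and in the precursor cells of the vulva, and it can bind DNA together with the Pbx relative CEH-20. Chromosome V is the longest chromosome of the worm. On the worm's autosomes the centre is rich in conserved genes and recombines little, while the arms recombine more and hold more repeats and more fast-changing gene families. V is known for large families of chemoreceptor genes.

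The intervals on V were mostly narrow. They numbered 79.3 per Mb of the 20.9 Mb extent of V, close to the 80.1 per Mb on the other chromosomes, and covered 544035 bp. That is 2.60% of V against 3.02% of the other chromosomes. The median width was 227.5 bp on V, with the middle of the distribution between 121.25 and 434 bp (25th and 75th percentiles), and the widest interval was 4456 bp. On the other chromosomes the median was 301 bp. Of the V intervals, 717 (43.2%, exact 95% interval 40.8 to 45.7%) reached 287 bp, the median width of the whole combined list, against 3297 of 6348 elsewhere (51.9%, 50.7 to 53.2%). V minus the others was -8.69 percentage points (two-sided Fisher's exact test, adjusted p = 4.592e-09 over 15 tests). With each replicate list's own median width as the cut, the difference was -7.55 points in replicate 1 (Fisher's exact test, adjusted p = 0.00122). In replicate 2 it was -4.28 points and did not pass (Fisher's exact test, adjusted p = 0.294). Chromosome IV, with a median of 236 bp, was near V in this respect, and the medians of the other 4 ran from 287 to 347.5 bp. At the wide end the difference did not pass: 66 V intervals (3.98%) and 4.46% of the others reached 1000 bp. The narrow end held 191 V intervals under 50 bp (11.5%, against 10.1% elsewhere). P-values here treat intervals as independent, which neighbours are not, and cover counting error only.

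As many combined intervals lay in the centre of V as an even spread gives. Those in the centre had a larger median width than those in the arms and more often overlapped both replicate lists. A larger share of them was among the strongest of the combined list, but their median strength was nearly that of the arms. In the replicate 2 list the centre median width was not larger, and the difference in strong intervals did not pass. The extent of V, 1 to 20912018 (the largest interval end in any list), was divided into a centre, the middle 33.3%, and a left and a right arm of the same length. The left arm held 555 combined intervals, the centre 552 and the right arm 551. The centre share of 33.3% (31.0 to 35.6%) was on the even share (exact binomial test, adjusted p = 1), and the arms did not differ from each other (50.2% of arm intervals in the left arm, adjusted p = 1). On the other chromosomes together the centre held 29.3% (1859 of 6348), and the whole list was at 30.1%. V stood 4.01 points above the other chromosomes (Fisher's exact test, adjusted p = 0.00529).

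In the centre, 119 of 552 combined intervals (21.6%, 18.2 to 25.2%) overlapped both replicate lists. In the arms 136 of 1106 did (12.3%, 10.4 to 14.4%), with 66 of 555 (11.9%) in the left arm and 70 of 551 (12.7%) in the right. The difference of 9.26 points passed Fisher's exact test (adjusted p = 8.114e-06). For replicate 2 alone, the share of combined intervals that overlapped replicate 2 was 25.7% in the centre and 17.0% in the arms (Fisher's exact test, adjusted p = 1.759e-04). The share that overlapped replicate 1 was 40.8% and 37.5%, a difference of 3.24 points that did not pass (Fisher's exact test, adjusted p = 0.402).

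**Figure D1:**
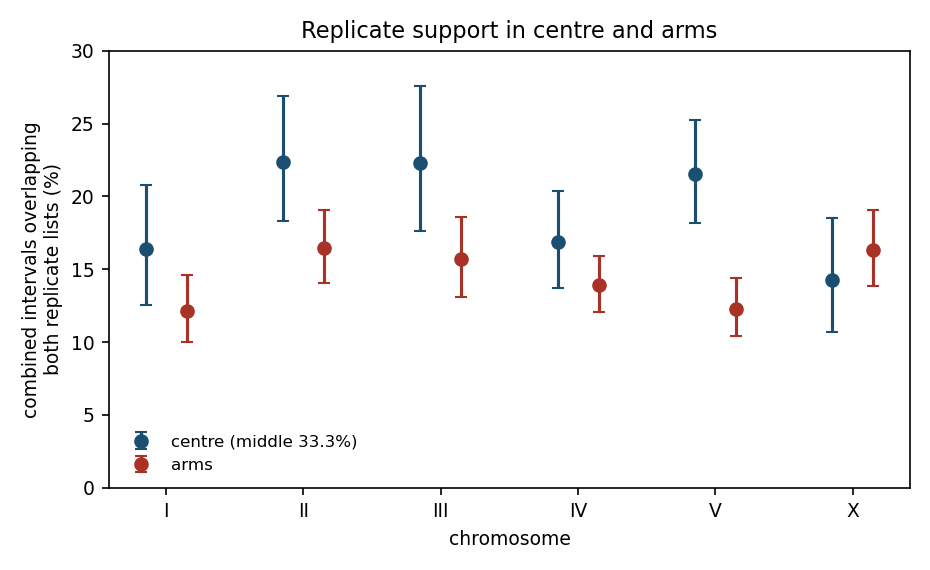
Share of combined intervals (%) that overlapped both replicate lists in the centre and the arms of each chromosome, with exact 95% intervals. On V the centre was at 21.6% and the arms at 12.3%, and their intervals do not overlap.

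The other autosomes leaned the same way by less, and X leaned the other way. Centre and arms were at 16.4% and 12.1% on I, 22.4% and 16.5% on II, 22.3% and 15.7% on III, 16.9% and 13.9% on IV and 14.3% and 16.3% on X. The odds of support in the centre relative to the arms were 1.96 on V and 1.29 on the other chromosomes together. The ratio of these odds ratios, 1.52 (95% interval 1.12 to 2.07), passed a likelihood-ratio test in a logistic model over intervals (n = 8006, adjusted p = 0.0182). It did not pass with either replicate list alone, at 1.38 with replicate 2 (n = 8006, adjusted p = 0.0616) and 1.05 with replicate 1 (n = 8006, adjusted p = 1). The other chromosomes include X here, and the ratio against the autosomes alone was not computed.

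Width and the share of strong intervals moved with support in the combined list. The median width was 306.5 bp in the centre of V, 204 bp in the left arm and 198 bp in the right. In the centre 52.9% of intervals reached 287 bp, against 38.4% in the arms, a difference of 14.5 points (Fisher's exact test, adjusted p = 1.773e-07). Strength is the significance value that the authors deposited for each interval, either a p-value or a q-value (the files leave this unsaid), smaller being stronger. Its median was nearly the same in the centre of V (7.08e-05) and in the arms (7.15e-05). The weakest 20% of the combined list made up 24.6% of the centre intervals and 21.9% of the arm intervals. The strongest 20% of the combined list made up 24.6% of the centre intervals (136 of 552) and 16.1% of the arm intervals (178 of 1106; Fisher's exact test, adjusted p = 1.759e-04). In the list of replicate 2, with the strongest 20% of that list, this difference was 6.29 points and did not pass (Fisher's exact test, adjusted p = 0.338). Among V intervals in the combined list's strongest 20%, 80.1% of the centre and 71.9% of the arm intervals overlapped both lists. That difference of 8.24 points did not pass (Fisher's exact test, adjusted p = 0.240). Among V intervals of 287 bp or more the difference was 8.41 points and did not pass either (Fisher's exact test, adjusted p = 0.0536). The parts of width and strength in the centre's support were not tested beyond these values.

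Counted within the replicate lists, intervals of the centre were found in the other list more often than those of the arms. These overlaps come from the same 2 lists that define support by both, so they are not separate evidence. Of the 245 replicate 1 intervals in the centre of V, 121 (49.4%, 43.0 to 55.8%) were found in replicate 2, against 141 of 475 in the arms (29.7%, 25.6 to 34.0%). This difference of 19.7 points passed Fisher's exact test (adjusted p = 1.394e-06 over 4 tests chosen after the data were seen). For replicate 2, 122 of 153 centre intervals (79.7%) and 140 of 203 arm intervals (69.0%) were found in replicate 1 (Fisher's exact test, adjusted p = 0.0381). The lists differed in where their V intervals lay. Replicate 1 had 238, 245 and 237 in left arm, centre and right arm, while replicate 2 had 98, 153 and 105. The centre share of replicate 2 was 42.98% (exact binomial test, adjusted p = 4.750e-04) and that of replicate 1 was 34.0% (adjusted p = 0.945). The width difference changed direction between the replicate lists: medians in centre and arms were 388 and 303 bp in replicate 1, but 401 and 415 bp in replicate 2.

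**Figure D2:**
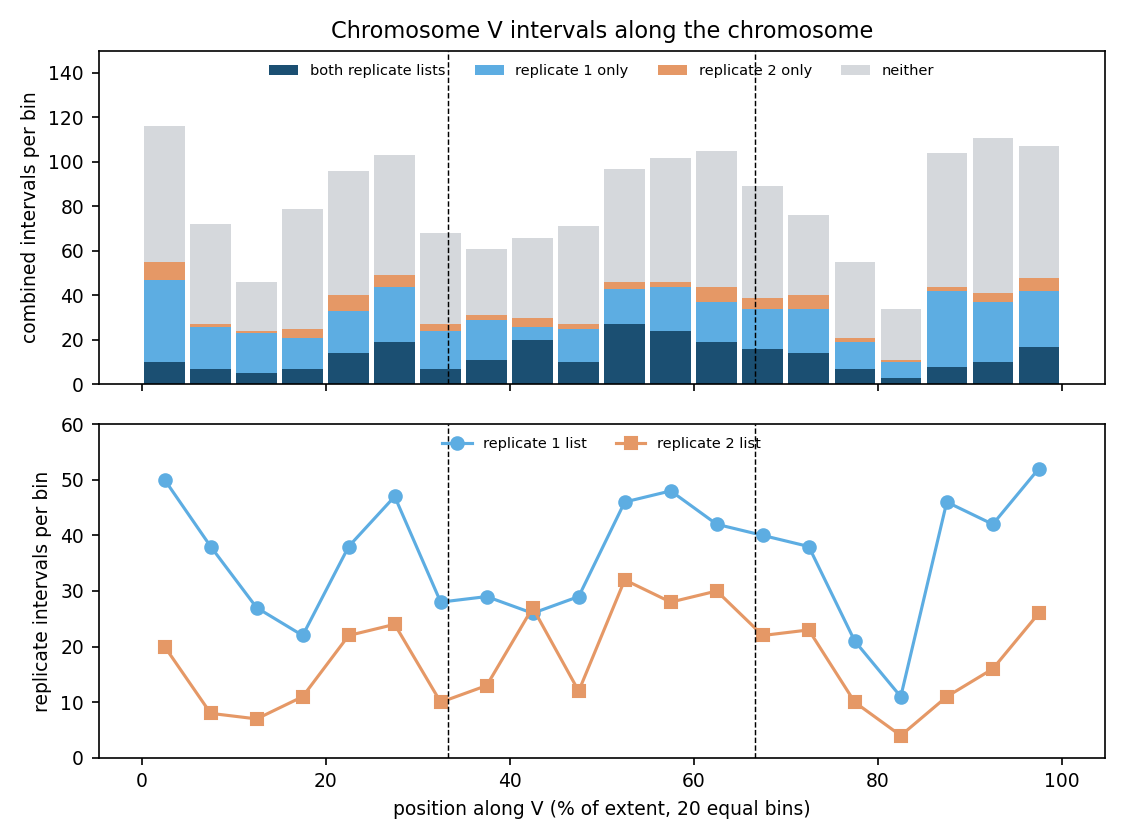
Combined intervals (top, bars coloured by which replicate lists they overlapped) and replicate intervals (bottom) in 20 equal bins along V, with dashed lines at the edges of the centre. Combined counts fall to 34 in the bin from 80 to 85% and reach 116 in the first bin, while intervals found in both lists peak at 27 in the bin from 50 to 55%.

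Within these parts the density was uneven. In 20 bins of 1045601 bp, combined intervals ranged from 34 to 116 with a median of 84. The first 5% of V held 116 and the last 15% held 104, 111 and 107 in its 3 bins. The bin from 80 to 85% of the extent held 34, and the bin from 10 to 15% held 46. All 3 lists were thin from 80 to 85%, where replicate 1 had 11 intervals and replicate 2 had 4, the lowest counts of both lists. Dense bins at the ends of V differed in support by both lists. The first bin had 10 of 116 (8.62%) in both lists and the bin from 85 to 90% had 8 of 104 (7.69%), the lowest share, while the last bin had 17 of 107 (15.9%). The highest share was 20 of 66 (30.3%) in the bin from 40 to 45%, followed by 27 of 97 (27.8%) from 50 to 55%. In the bin from 40 to 45% replicate 1 had 26 intervals and replicate 2 had 27, whereas replicate 1 had more in each of the other 19 bins. The longest stretch of V without a combined interval was 318438 bp, at 2281897 to 2600334, where replicate 1 had 1 interval and replicate 2 had 0. The longest such stretch between intervals on another chromosome was 192674 bp.

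Taking V whole, replicate support was near that of the rest of the genome. Of the 1658 intervals, 255 (15.4%, 13.7 to 17.2%) overlapped both lists, against 15.8% elsewhere and 15.7% of the whole list (Fisher's exact test, adjusted p = 1). Another 385 (23.2%) overlapped replicate 1 alone, 75 (4.52%) replicate 2 alone, and 943 (56.9%, 54.5 to 59.3%) overlapped neither, where the whole list was at 55.4%. Replicate 2 intervals on V were found in replicate 1 in 262 of 356 cases (73.6%, 68.7 to 78.1%), beside 73.8% over all chromosomes. Replicate 1 intervals were found in replicate 2 in 262 of 720 cases (36.4%, 32.9 to 40.0%), beside 36.2%. Neither differed between V and the other chromosomes by the test (Fisher's exact test, adjusted p = 1 for both). The combined list lacked 74 of the 720 replicate 1 intervals and 19 of the 356 replicate 2 intervals.

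The support classes on V differed in width and in place. A wider interval has more bases that can meet the 1 bp overlap rule, so width and support are not independent measures. Intervals in both lists had a median width of 570 bp and none was under 239 bp. Those in replicate 1 alone had a median of 290 bp, those in replicate 2 alone 368 bp and those in neither 168 bp. Of the 191 intervals under 50 bp, 0 overlapped both lists (exact 95% upper bound 1.91%) and 159 overlapped neither. In the centre lay 46.7% of the intervals in both lists, 27.5% of those in replicate 1 alone, 30.7% of those in replicate 2 alone and 32.2% of those in neither.

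**Figure D3:**
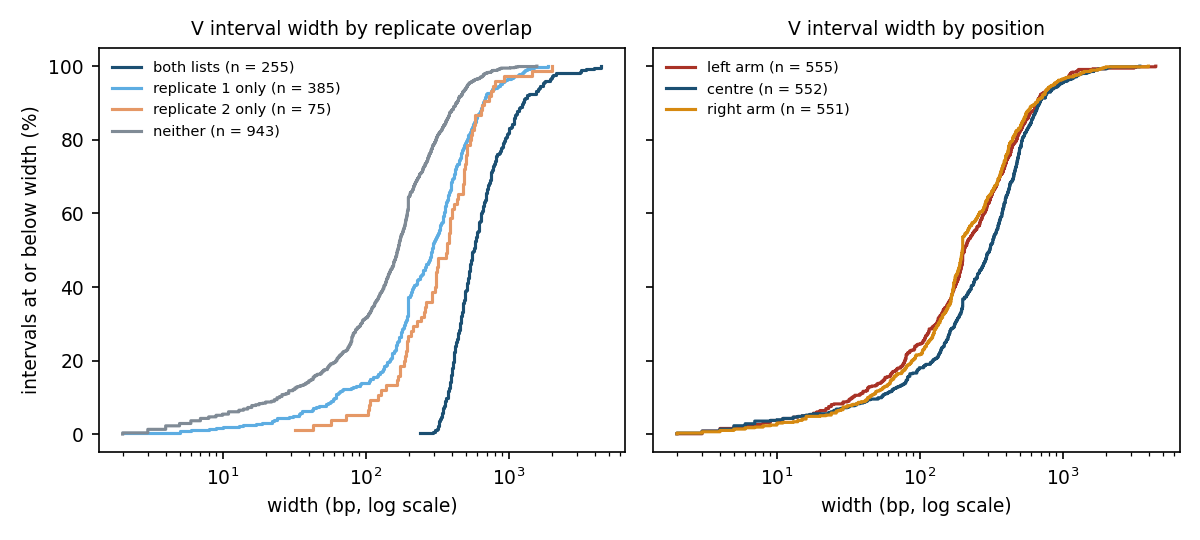
Cumulative share of V intervals (%) by width (bp, log scale), split by the replicate lists they overlapped (left) and by position (right). The curve of intervals in both lists starts at 239 bp, right of the others, and the centre curve lies right of both arm curves at its median of 306.5 bp.

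Support followed strength closely. The lists belong to the same series and none holds a value above 9.997e-04, so strength and support are not independent measures. All of the 50 strongest V intervals, 99 of the 100 strongest and 185 of the 200 strongest overlapped both lists. In steps of 20% of the whole combined list by strength, 237 of 314 V intervals (75.5%) of the strongest step were in both lists, then 17 of 291 (5.84%), 1 of 329 (0.304%), 0 of 346 (upper bound 1.06%) and 0 of 378 (upper bound 0.971%). The strongest interval without support by both was the 55th on V, at 20001033 to 20002901. The weakest with it was the 662nd, at 15065529 to 15066284, 756 bp wide with a value of 2.20e-05. From the first 25 on, the strongest intervals of V leaned to the centre: 12 of 25, 29 of 50 (58%), 47 of 100 and 86 of 200 lay there. Of the first 10, 3 did. These nested sets were not tested.

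The 10 strongest intervals of V lay in both arms and the centre, and each was found in both replicates. First was 4507511 to 4508765 in the left arm, 1255 bp wide, with a deposited value of 9.10e-101 and rank 7 of the whole list. Replicate 1 had it at 4507585 to 4508587 (value 1.84e-63, rank 8 of that list) and replicate 2 at 4507753 to 4508853 (2.16e-46, rank 10). This interval was among the 10 strongest of the genome in each list. The second, at 6222233 to 6226688 with a value of 2.44e-78, was also the widest on V at 4456 bp. Replicate 1 divided it into 6224009 to 6225733 (2.05e-34, rank 36) and 6222132 to 6223749 (8.40e-09, rank 692), and replicate 2 had 1 interval, at 6223711 to 6226760 (4.67e-33, rank 20). Its right neighbour in the combined list, 6227028 to 6230249, was 3222 bp wide with a value of 3.69e-39 and belonged to the same run. In replicate 1 the neighbour had a value of 3.66e-26 (rank 76) and a width of 2986 bp, in replicate 2 4.76e-10 (rank 299) and 825 bp.

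The next intervals are given with their ranks in the replicate lists, which held 3541 (replicate 1) and 1743 (replicate 2) intervals. Equal ranks therefore stand for unlike places in the 2 lists. At 19521633 to 19523379 in the right arm (value 1.55e-71), replicate 2 had a single interval of rank 19 (9.67e-35). Replicate 1 had 2 intervals there, of rank 131 (7.40e-21) and 248 (1.67e-15). At 20705560 to 20709516, 3957 bp wide and near the right end of V (3.83e-58), replicate 1 had intervals of rank 157 and 667 and replicate 2 of rank 80 and 180. Closer in rank number were 5049267 to 5050116 (3.34e-59), with rank 33 in replicate 1 and 38 in replicate 2, and 14685468 to 14686557 (1.35e-50), with rank 30 and 33. Also close in rank number was 11764182 to 11764876 in the centre (2.47e-51), with rank 35 and 43. It was the narrowest of the 10 at 695 bp.

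A pair of the 10 strongest lay 4466 bp apart in the centre. At 13080948 to 13083086 (2139 bp, value 1.19e-69) replicate 1 had 2 intervals, the stronger of rank 41 (2.64e-32), and replicate 2 had 1 of rank 23 (2.92e-32). At 13087553 to 13091000 (3448 bp, value 1.80e-57) replicate 1 had 2 intervals of rank 296 and 368 and replicate 2 had 3 of rank 156, 210 and 1208. Here the combined interval, rank 33 of the whole list, ranked far above each of its parts in the replicates. The 8th of the 10 by strength, at 726823 to 729961 in the left arm (3139 bp, 1.05e-52), had 1 interval of rank 43 in replicate 1. Replicate 2 had 2 there, of rank 104 and 651. Intervals that a list divides were few: 10 combined intervals on V held 2 or more of replicate 1 and 7 held 2 or more of replicate 2.

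Intervals found in 1 replicate list alone were spread over V, with 141 in the left arm, 106 in the centre and 138 in the right arm for replicate 1, and 28, 23 and 24 for replicate 2. The 3 strongest combined intervals found in replicate 1 alone were 20001033 to 20002901 (3.25e-24), 19519620 to 19520925 (6.08e-18) and 18715746 to 18717155 (4.18e-17), between 1306 and 1869 bp wide. Those found in replicate 2 alone were 20006383 to 20006869 (4.29e-11), 18709809 to 18710381 (5.25e-10) and 19117049 to 19117452 (2.46e-09). These 6 were all in the right arm. The first of each class lay 3481 bp apart, and the second interval of the replicate 2 class lay 5364 bp from the third of the replicate 1 class. In neither replicate list were 19636527 to 19638101 (4.26e-09, 1575 bp), 725498 to 726597 (2.71e-08, 1100 bp) and 15291607 to 15292141 (7.09e-08, 535 bp).

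The strongest V intervals of each replicate list that the other replicate lacked came after many shared intervals in order of strength. The strongest on V in replicate 1 was 15658136 to 15659110 (value 1.72e-13, 69th of 720 on V), and the nearest replicate 2 interval was 4473 bp away. The next were 9513474 to 9513946 (9.60e-13) and 10355940 to 10356298 (6.09e-12), at 32855 and 2521 bp from the nearest replicate 2 interval. In replicate 2 they were 20006383 to 20006936 (3.91e-08, 91st of 356 on V), 18709867 to 18710381 (4.79e-08) and 19117032 to 19117473 (2.42e-07), at 914, 4879 and 7794 bp from the nearest replicate 1 interval. All 6 were present in the combined list, with smaller values than in the replicate.

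Regions that overlapped one to one in the replicates had a similar order of strength. Over the 248 such regions of V, the deposited values had a Spearman's rho of 0.718, and their −log10 a Pearson's r of 0.857. On the other chromosomes, with 993 regions, they were 0.678 and 0.910. These coefficients describe intervals that both lists called and carry no test. Replicate 1 had the smaller value in 193 of the 248 regions (77.8%), as in 77.4% elsewhere. Its intervals there were a median of 465 bp wide and those of replicate 2 430 bp, with a median overlap of 360 bp. Over V as a whole, the midpoint of replicate 2 lay to the right in 128 regions and to the left in 120. The median shift was 2.75 bp (25th to 75th percentile, -71.25 to 52.25 bp). In the centre 67 lay to the right and 50 to the left, with a median shift of 10.5 bp. In the arms 61 lay to the right and 70 to the left, with a median shift of -17 bp. The difference between centre and arms was not tested.

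**Figure D4:**
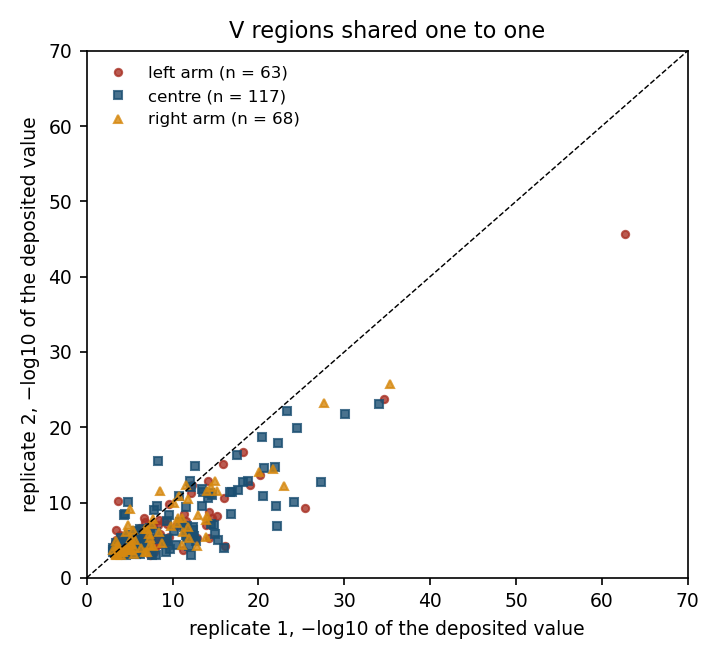
−log10 of the deposited value in replicate 1 (x axis) and replicate 2 (y axis) for the 248 V regions that overlapped one to one, by position, with the line of equal values. Most points lie under the line, 193 of 248, and the point at the upper right is the strongest V interval, in the left arm.

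Runs, in which 2 or more neighbouring combined intervals followed each other with gaps of 2 kb or less, held 729 of the V intervals (44.0%, 41.6 to 46.4%). The whole list was at 43.7% and the other chromosomes at 43.6%, and V did not differ from them (Fisher's exact test, adjusted p = 1). There were 283 runs on V, 187 of 2 intervals, 58 of 3, 21 of 4 and 17 of 5 or more, with a median span of 2004 bp and a longest of 10373 bp. Gaps on V had a median of 5787 bp and none was under 208 bp. In the arms 45.2% of intervals lay in runs and in the centre 41.5%, a difference that did not pass (Fisher's exact test, adjusted p = 0.294). Intervals in runs were in both replicate lists in 126 of 729 cases (17.3%) and single intervals in 129 of 929 (13.9%), and the difference of 3.40 points did not pass either (Fisher's exact test, adjusted p = 0.137). It passed when runs were built with gaps of up to 5 kb, at 5.67 points (Fisher's exact test, adjusted p = 0.00663). With gaps of up to 1 kb it was 4.22 points and did not pass (Fisher's exact test, adjusted p = 0.0814). Of the 283 runs, 102 (36.0%) had at least 1 interval in both lists, 18 had 2 or more, and 82 had no interval in either list. All 8 V intervals of 2000 bp or more were in runs, as were 47 of the 66 of 1000 bp or more.

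The 5 runs described here have the most intervals, with ties going to the longer span, and they differed widely in strength and support. Of the 5 runs of 6 intervals, 3 shorter ones were left out by this rule. They began at 4495119, 12634650 and 14846633, each had 1 interval in both lists, and the last held a stronger interval (2.90e-47) than any of the 5 described. The run with most intervals, 15652901 to 15661879 in the right arm, held 8 combined intervals of 166 to 1187 bp, the strongest at 15658131 to 15659061 (value 1.16e-16). Replicate 1 had 6 intervals there and replicate 2 had 1, at 15652910 to 15653159 (6.57e-04), and no combined interval of the run was in both lists. The second, 18714347 to 18724719, also in the right arm, was the longest run of V at 10373 bp. Its 7 combined intervals covered 7689 bp and its strongest, 18723170 to 18724719 (5.41e-35), was found in replicate 1 (2.20e-22) and replicate 2 (3.87e-15). Replicate 1 had 5 intervals in this run and replicate 2 had 2, both at its right end.

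The third run, 13389522 to 13396259 in the centre, was weak throughout. None of its 7 combined intervals had a value under 5.05e-05, the widest was 498 bp, and replicate 1 had 2 and replicate 2 had 1 interval there, at different places. About 70.7 kb to its right, the run 13466916 to 13475573 held 6 combined intervals, of which 3 were in both lists. Its strongest, 13468061 to 13470078 (1.39e-33), had values of 4.23e-14 in replicate 1 and 1.77e-12 in replicate 2, and each replicate list had 4 intervals in the run. The fifth run, 20773444 to 20781309 near the right end of V, began with its strongest interval, 20773444 to 20774204 (2.04e-25), found in replicate 1 (1.20e-15) and replicate 2 (1.56e-13). Of its other 5 combined intervals, 3 were found in replicate 2 alone, 1 in replicate 1 alone and 1 in neither.

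**Figure D5:**
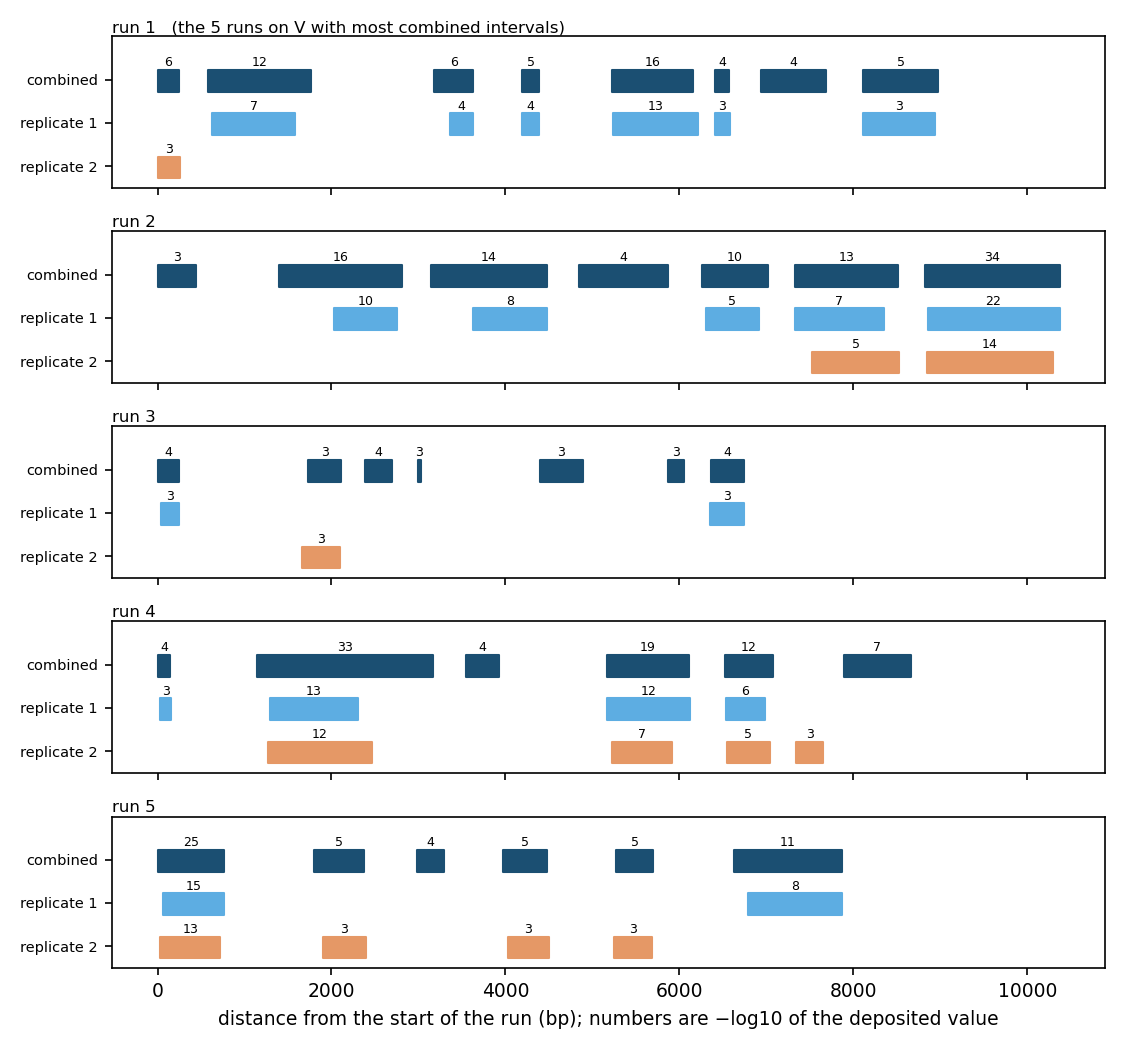
The 5 runs of V with most combined intervals (ties go to the longer span), drawn to scale as distance from the start of each run (bp), with the intervals of the combined list and of both replicate lists as bars. Numbers over the bars are −log10 of the deposited value, rounded to whole numbers. The first run has 6 replicate 1 intervals and 1 of replicate 2, the third has few and weak ones, and in the fourth the replicates share 3 regions.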

How the data were processed

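Intervals were called with PeakSeq, per the source column of the lists, and placed on WS220 of WormBase, per the file headers. Each interval carries 1 p-value or q-value, which the authors deposited without saying which, and none exceeds 9.997e-04. Per the labels' protocols, worms were fixed in 2% formaldehyde, treated with 100 mM Tris and sonicated, and part of each extract was kept as input. PeakSeq's version and thresholds, the aligner, the control and whether replicates were pooled to call the combined list are details not given in the sources used here. Because the lists carry no read numbers, depth is unknown, and a longer list can reflect more reads. Libraries were grouped by title.

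Position was the midpoint divided by the largest interval end on the chromosome in any list. Shares were compared by two-sided Fisher's exact or exact binomial tests and a logistic model, with Benjamini-Hochberg adjustment over 15 tests, and have exact 95% intervals (Clopper-Pearson), which cover counting error only. Intervals named in the text were the 10 strongest and 5 widest of V, its 5 runs with most intervals (ties by span), the 3 strongest of each class of incomplete support, and the 3 strongest in each replicate list that the other lacked. Single intervals, bins and the longest gap outside this rule were chosen after their values were seen. The members and rules were chosen with earlier results of these data known. No genome of WS220 was used here, so genes and sequences were not analysed. Alternatives changed the overlap rule, list, centre, gap, width and strength limits. The p-value of each alternative took the place of its main p-value among the 15 tests, with no adjustment over the alternatives. Overlap counting was tested on simulated data. Scripts used Python 3.11.15, numpy 2.4.6, pandas 2.3.3, scipy 1.17.1, statsmodels 0.14.6 and matplotlib 3.10.9.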

Additional observations from a re-analysis of the deposited data

Results flagged for a closer look

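The odds of support by both replicate lists in the centre relative to the arms were 1.52 times as high on V as on the other chromosomes (logistic model over intervals, n = 8006, likelihood-ratio test, adjusted p = 0.0182). Over single chromosomes the odds ratio was 1.96 on V, 1.25 to 1.54 on I, II, III and IV, and 0.853 on X. A ratio against the autosomes alone was not computed. For replicate 1 intervals found in replicate 2, the same ratio was 1.67 (n = 3541, adjusted p = 0.0103 over 4 tests chosen after the data were seen), from an odds ratio of 2.31 on V and 1.39 elsewhere. For replicate 2 intervals found in replicate 1 it was 1.47 and did not pass (n = 1743, adjusted p = 0.173). Both draw on the same 2 replicate lists as support by both and are not separate evidence. Interval width and the share of strong intervals differed between centre and arms of V in the combined list as well, and their part in this was not tested.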

How the results depend on the processing

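Of 106 alternatives, 75 left direction and call as they were, 10 no longer passed, 2 newly passed and 19 changed sign. In 17 of these 19 the difference passed neither before nor after, and 7 of the 106 were added after the data were seen. The cause of the changes was not tested. With each replicate list alone, the centre share of V differed from the even share by 0.694 to 9.64 points, the left arm share from 50% by -1.72 to 0.105, and V from the others by -7.55 to -4.28 for wide intervals and -0.0994 to 0.356 for the strongest 20%. The call on wide intervals of V was lost in the list of replicate 2. In the same way, the centre minus the arms was -3.18 to 15.5 points for wide intervals, 6.29 to 11.95 for the strongest 20% and -0.889 to 3.83 for runs. For these ranges the limits were the median width and the strongest 20% of each replicate list itself. With overlap with 1 replicate alone, the difference in support was 3.24 to 8.73 points for centre and arms, the ratio of odds ratios 1.05 to 1.38, and runs minus single intervals 3.65 to 5.53 points.

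In the stronger 50% of the combined list, the centre share was 0.262 points off the even share and the left arm share -0.593 off 50%, and V minus the others was 2.67 points for support and 1.50 for the strongest 20%. With intervals of 50 bp or more the centre and left arm shares were off by 0.682 and -0.310 points, with the middle 50% as centre by 0.543 and -0.122, and with neighbours merged the centre share by 0.413. Runs with gaps of 5 kb gave 5.67 points for support, and gaps of 1 kb gave 2.22 for runs in centre minus arms. Against autosomes alone the share of V in runs differed by -0.908. Replicate 1 intervals found in replicate 2 differed by -0.710 points at a reciprocal overlap of 50% and -1.98 with midpoints within 200 bp. With a width limit of 1000 bp, V against the others was at -0.477 points and the centre against the arms at 0.822. Support in centre and arms differed by 8.24 points in the strongest 20%, 8.41 at the median width or more and 7.42 with both limits, and by 7.92 to 10.4 with each bin of V left out in turn. The groups are smaller under those limits.

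No paired analysis was possible because all results come from interval lists and the inputs entered no comparison. Depth is unknown, so a region missing from 1 list cannot be called unbound.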
